A study of Homo sapiens with 8 samples.

Results

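Ephrins, Slits and netrins, together with the receptors that read them, form 3 families of guidance genes, and their transcripts were followed here in RD cells, a human rhabdomyosarcoma line, after knockdown of the homeobox transcription factor PROX1. The 36 genes were chosen by name, as 13 Eph receptors, 8 ephrins, 3 Slits, 4 Robos, 2 netrins and 6 netrin receptors, out of 58302 genes in the count tables. The tested cells carried a short hairpin RNA against PROX1 (shPROX1, n = 4), and the control cells carried a scrambled hairpin (n = 4). All 8 libraries were made from total RNA of the same line with a directional kit, and the series' design calls the 4 libraries of each group biological replicates. Each group rests on 1 line and, as far as the labels say, 1 hairpin.

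Eph receptors are tyrosine kinases that bind ephrins on the surface of neighbouring cells, so that signalling needs cell contact and can run into both cells. Class A receptors mostly bind ephrin-A ligands, which are held by a lipid anchor, and class B receptors mostly bind transmembrane ephrin-B ligands. Slits are secreted proteins that repel cells and axons through Robo receptors, and netrins are laminin-related secreted proteins that attract through DCC or neogenin and repel through UNC5 receptors. In the embryo these families steer axons, migrating muscle precursors and vessels.

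The libraries held 3747090 to 4865161 counts. The sums of the groups did not differ past the threshold (exact two-sided permutation p = 0.514, n = 4 per group). The share of mitochondrial counts was 0.12 to 0.278% in shPROX1 and 0.098 to 0.702% in control libraries. Control replicates 2, 3 and 4, at 0.702, 0.473 and 0.681%, lay above every shPROX1 library, and control replicate 1 lay below them all. The part of this difference in the results was not tested. The first principal component, with 67.7% of the variance of the 500 most variable genes, separated the groups, and the second, with 13.2%, set control replicate 1 apart. PROX1 itself measured 7.80, 10.4, 9.14 and 8.26 CPM (the count scaled to a common library size) in shPROX1 libraries, against 20.1, 16.3, 16.6 and 21.3 CPM in control libraries. It was lower in all 4 shPROX1 libraries, by 52.4% in the fit (log2 change -1.07 ± 0.15 SE, edgeR adjusted p = 4.89e-06), a smaller reduction than the 75% of the series' design text. The exact two-sided permutation p was 0.0286, the smallest that 70 arrangements allow. Of 10 skeletal muscle markers, all 10 were at 1 CPM or more. Their summed level was 1606 to 1681 CPM in shPROX1 and 1850 to 1880 CPM in control libraries. Past the threshold 1 marker was higher and 7 were lower, or 10% and 70% against 17.3% and 17.9% of all tested genes. MYOG, MYH8 and MYH3 fell most (log2 change -1.32, -1.22 and -0.94). CHRNG and CDH15 fell less (-0.58 and -0.45), and DES and NCAM1 least (-0.18 each). TNNT2 rose (log2 change 0.48), and MYOD1 and CHRNA1 did not pass (0.04 and 0.01). Most of these markers, though not all, thus shifted beside every result given here. Their part in those results was not tested.

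The guidance genes covered a wide range of transcript levels. Compared per length, as CPM per kilobase of annotated exon, EPHA2 stood first, at a mean of 30.9 CPM per kilobase in shPROX1 cells and 21.8 CPM per kilobase in control cells. EPHA7, EPHB4 and EPHA3 followed at 14.1 to 19.1 CPM per kilobase in shPROX1 cells and 14.3 to 16.3 CPM per kilobase in control cells. ROBO1 was the most abundant receptor outside the Eph family, at 10.5 CPM per kilobase in shPROX1 cells and 9.98 CPM per kilobase in control cells. EFNA5 was the most abundant ligand, at 7.74 CPM per kilobase in shPROX1 cells and 7.87 CPM per kilobase in control cells. At the other end, ROBO2 and DCC had 0 counts in all 8 libraries, which allows at most 0.609 to 0.806 CPM per library (3 counts). In total 18 of the 36 genes passed the filter on low counts.

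**Figure D1:**
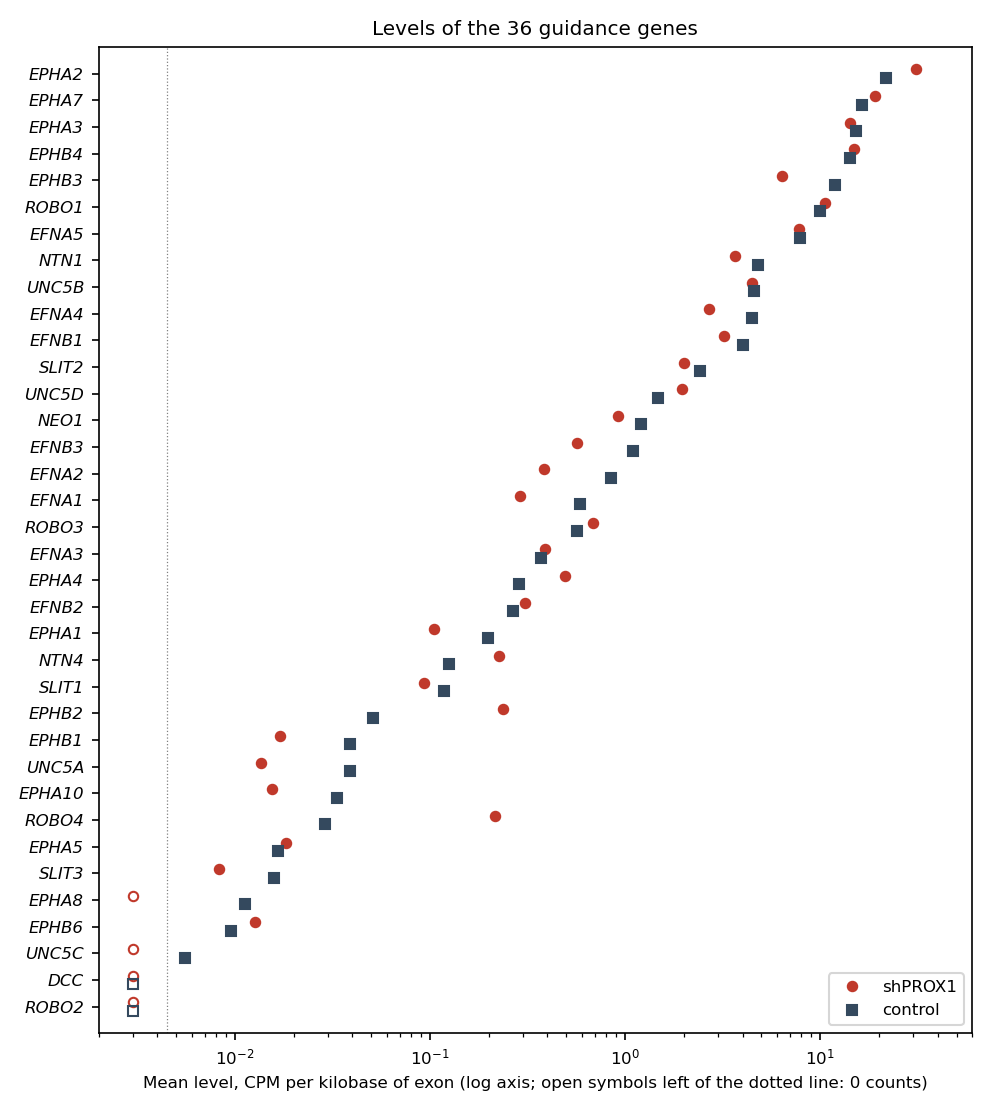
Mean level of each of the 36 guidance genes in CPM per kilobase of exon, on a log axis, for shPROX1 (red circles) and control cells (dark squares), sorted by the control level, with open symbols for genes at 0 counts. EPHA2 is highest at 30.9 in shPROX1 and 21.8 in control cells, and among genes above 1 CPM per kilobase in both groups the symbols lie farthest apart at EPHB3, at 6.39 in shPROX1 and 12.0 in control cells.

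Of the 18 tested genes, 7 passed an adjusted p of 0.05 over all 12392 tested genes, which is 38.9% against 35.2% of all tested genes. EPHA2, EPHA7, EPHB2 and UNC5D rose, which is 22.2% against 17.3% of all genes, and EPHB3, EFNA4 and NTN1 fell, which is 16.7% against 17.9%. CPM values of the 4 shPROX1 and the 4 control libraries did not overlap for 6 of 18 genes, or 33.3%, against 32.4% of all tested genes. These shares are near the background, so the number of guidance genes that changed is no result about them as a set. The median log2 change was -0.03 over the 18 genes and -0.01 over all tested genes. The median size of the change, whatever its sign, was 0.37 on the log2 scale over the 18 genes and 0.18 over all tested genes. This difference was not tested, and rare genes with a wide error enter it. Examples are EPHA4 (0.75 ± 0.32 SE) and EFNB3 (-0.94 ± 0.39 SE), neither past the threshold. EPHB2 is among the genes that rose and did not overlap, though it passed the filter only through the shPROX1 libraries. By role, 4 of 12 tested receptors (33.3%) rose and 1 (8.33%) fell, while 0 of 6 tested ligands rose and 2 (33.3%) fell. Over all tested genes 17.3% rose and 17.9% fell. The shares by role rest on few genes, and the receptors that rose include EPHB2 and UNC5D, of which UNC5D overlapped between the groups. All 6 tested ligands had a fitted log2 change below 0, from -0.94 to -0.03, of which 4 did not pass the test and 1, EFNA5, turned above 0 in 3 of the fits that left out a library. Of all 12392 tested genes, 6327 had a change below 0. In an alternative fit with no filter on low counts, the ligands NTN4, EFNB2 and EFNA3 had changes above 0 (0.81, 0.22 and 0.10). EFNA1, EFNA2, SLIT1 and SLIT3 had changes below 0 in that fit. Receptors and ligands were not tested against each other.

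**Figure D2:**
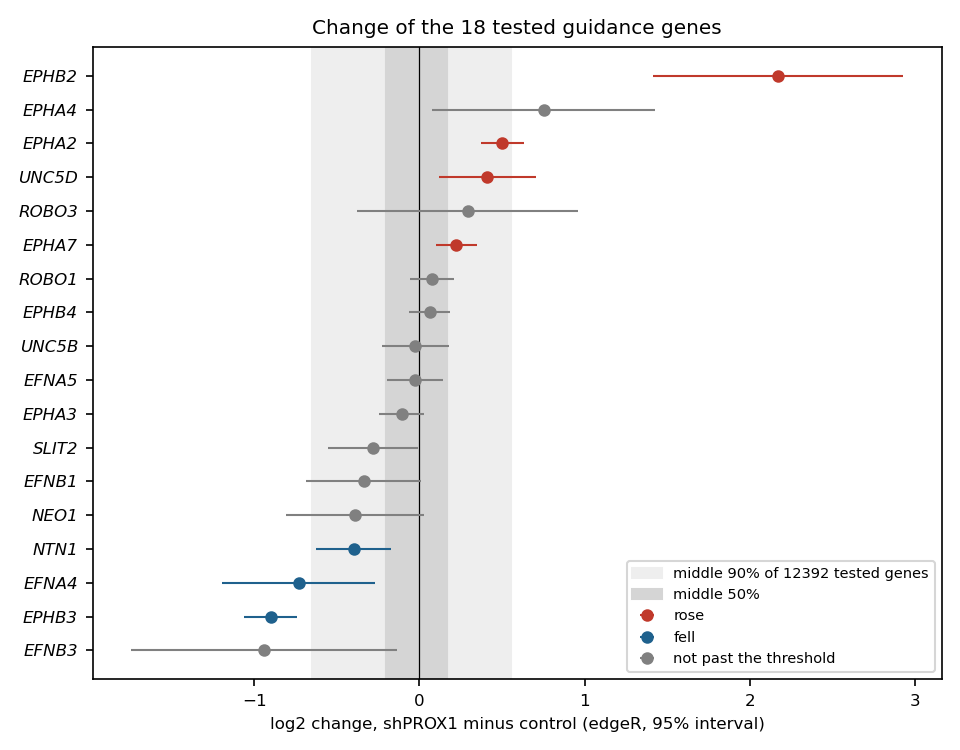
Log2 change of the 18 tested guidance genes, shPROX1 minus control, with 95% intervals from edgeR, coloured by call, over grey bands for the middle 90% and 50% of all 12392 tested genes. EPHB2 lies farthest to the right at 2.17, and EPHB3 at -0.90 has the narrowest interval of the genes below -0.65, the lower edge of the wide band.

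Among class A Eph receptors, EPHA2 and EPHA7 rose, and EPHA3 and EPHA4 did not pass the test. EPHA2 (ENSG00000142627, chromosome 1, 16124337 to 16156087, minus strand, GRCh38) encodes a receptor that many carcinomas carry at high levels. It measured 121, 118, 137 and 138 CPM in shPROX1 libraries, against 97.6, 90.9, 87.3 and 87.5 CPM in control libraries. Every shPROX1 library lay above every control library. The fold was 1.42 (95% interval 1.29 to 1.55, log2 change 0.50 ± 0.06 SE, edgeR adjusted p = 1.33e-06).

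EPHA7 (ENSG00000135333, chromosome 6, 93240020 to 93419547, minus strand) binds ephrin-A ligands and is best known for patterning neural projections. It was read at 148, 141, 135 and 144 CPM in shPROX1 libraries, against 109, 126, 119 and 133 CPM in control libraries. The groups did not overlap, though the lowest shPROX1 and the highest control library lay close together. The log2 change was 0.22 ± 0.06 (SE, adjusted p = 0.00599), a size that 42.3% of all tested genes exceeded in either direction.

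EPHA3, which like EPHA7 binds ephrin-A ligands, had 96.7, 93.9, 103 and 84.3 CPM in shPROX1 libraries and 107, 105, 93.8 and 101 CPM in control libraries. The groups overlapped, and the log2 change of -0.11 ± 0.06 (SE) had an adjusted p of 0.207. EPHA4, a receptor for ephrins of both classes that guides limb motor axons in mice, was rare. Its levels were 2.36, 2.48, 4.84 and 5.19 CPM in shPROX1 libraries and 2.36, 2.47, 1.21 and 2.64 CPM in control libraries, so that shPROX1 replicates 3 and 4 stood above the other 6 libraries. Its log2 change was 0.75 ± 0.32 (SE, adjusted p = 0.0765). Without shPROX1 replicate 1 or 2 the adjusted p was 0.0405 or 0.0482. Over all fits that each left out 1 library, the edgeR adjusted p ran from 0.0405 to 0.277.

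Among class B receptors, EPHB3 fell, EPHB2 rose and EPHB4 did not pass the test. EPHB3 (ENSG00000182580, chromosome 3, 184561784 to 184582409, plus strand) is an ephrin-B receptor that acts with EPHB2 in positioning cells of the mouse intestinal crypt. Its levels were 30.3, 28.8, 28.2 and 28.6 CPM in shPROX1 libraries, against 52.5, 52.8, 58.8 and 52.6 CPM in control libraries. The shPROX1 libraries lay closer together than counting error alone would spread them (coefficient of variation 3.11% against 9.23% from counting), and the groups were far apart. The fold was 0.536 (95% interval 0.479 to 0.599, log2 change -0.90 ± 0.08 SE, edgeR adjusted p = 4.36e-09). Only 3.96% of all tested genes changed by more in either direction.

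EPHB2 (ENSG00000133216, chromosome 1, 22710839 to 22921500, plus strand) had 13, 10, 13 and 12 counts in shPROX1 libraries, against 2, 3, 3 and 3 counts in control libraries. In CPM these are 3.07, 2.48, 3.49 and 2.83 in shPROX1 cells and 0.473, 0.741, 0.723 and 0.609 in control cells. No library of one group reached the other. The ratio of the summed counts, scaled by library size, was 4.59, with a 95% interval of 2.35 to 9.81 for counting error only. The fitted log2 change was 2.17 ± 0.37 (SE, edgeR adjusted p = 6.21e-05), and 0.186% of all tested genes changed by more. EPHB2 passed the filter on low counts only through the shPROX1 libraries, 4 of which exceeded its limit (10 counts at the median depth, 2.39 CPM on unscaled library sizes) against 0 of the control libraries, so that a gene of this kind had to differ to be tested at all. Even in shPROX1 cells its level per length, 0.237 CPM per kilobase, stayed far below that of EPHB3 at 6.39 CPM per kilobase.

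EPHB4, the receptor of ephrin-B2 that marks veins, was read at 101, 98.1, 89.5 and 94.2 CPM in shPROX1 libraries and 87.9, 97.3, 93.5 and 88.5 CPM in control libraries. The groups overlapped. Its log2 change of 0.06 ± 0.06 (SE, adjusted p = 0.455) has a 95% interval from -0.06 to 0.19.

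**Figure D3:**
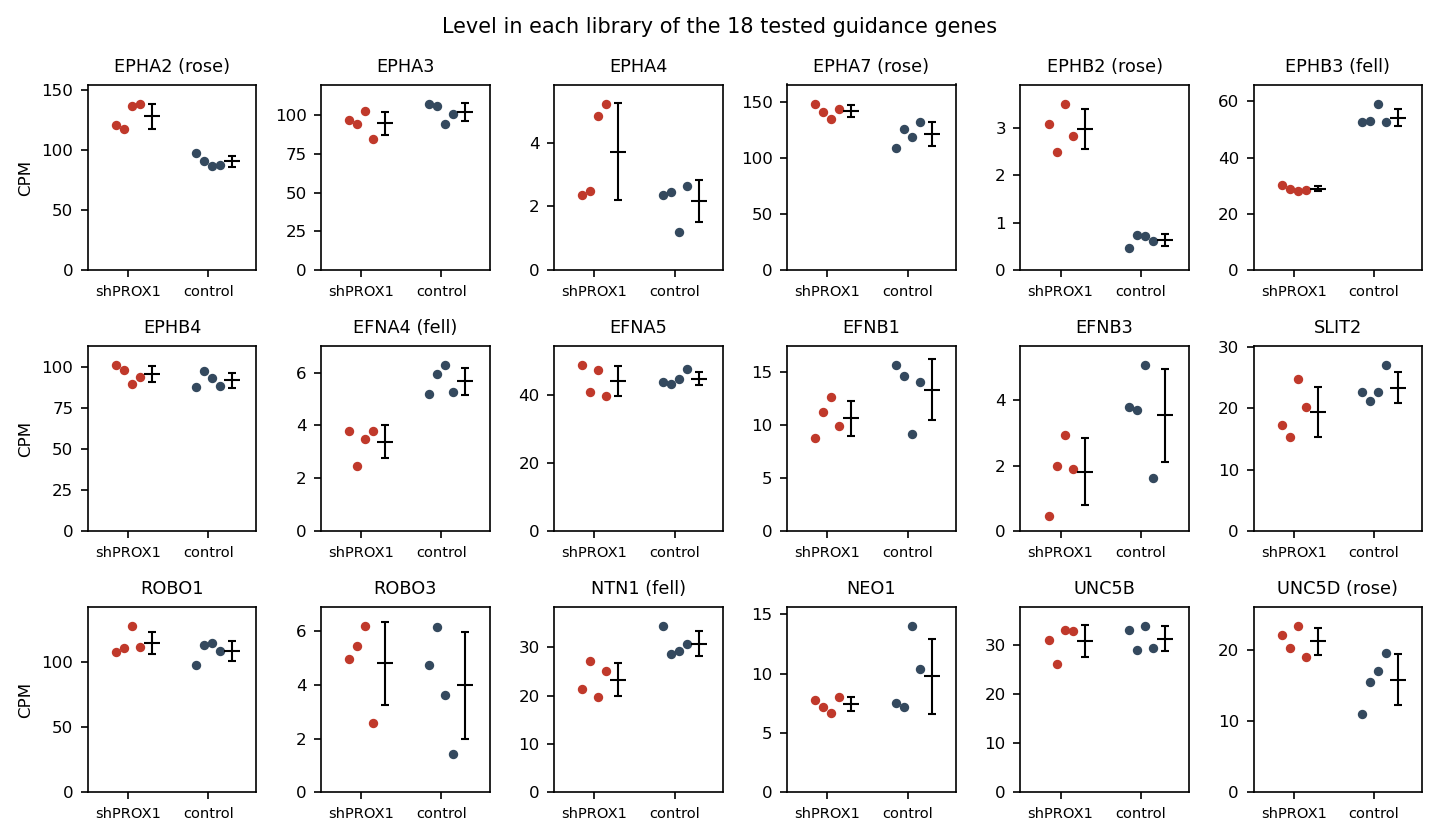
CPM of each of the 18 tested guidance genes in every library, with shPROX1 (red) left of control (dark) and, beside the points, a bar for the group mean and its SD over 4 libraries. The groups are apart at EPHA2, EPHA7, EPHB2, EPHB3, EFNA4 and NTN1, whereas UNC5D overlaps at the edge, and EFNB3, ROBO3 and NEO1 spread widely within a group.

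The summed level of the 13 Eph receptors was 497 ± 7.63 CPM in shPROX1 cells and 465 ± 9.66 CPM in control cells (SD, n = 4 each). The sums of the classes differed in opposite directions, which does not hold for every receptor in them. Class A receptors summed to 357 to 380 CPM in shPROX1 libraries and 303 to 326 CPM in control libraries. Class B receptors summed to 122 to 134 CPM in shPROX1 libraries and 141 to 153 CPM in control libraries. EPHA2 made up 25.8 ± 1.93% of Eph receptor counts in shPROX1 cells and 19.6 ± 1.19% in control cells. The share of EPHB3 was 5.82 ± 0.18% in shPROX1 cells and 11.7 ± 0.83% in control cells. These shares follow from the levels above and carry no test of their own, and they are shares of counts that also depend on transcript length. EPHA7, EPHA3 and EPHB4 held 28.6, 19.0 and 19.2% of the counts in shPROX1 cells and 26.2, 21.9 and 19.8% in control cells.

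**Figure D4:**
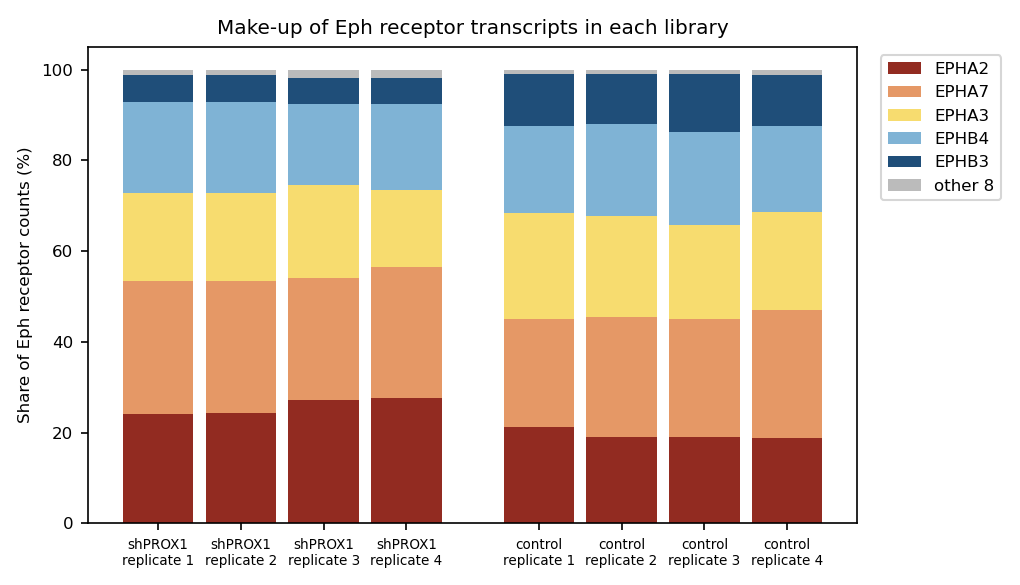
Share in percent of the counts of 13 Eph receptors that each receptor took in every library, with the 4 shPROX1 libraries left of the 4 control libraries and the 8 rarer receptors summed in grey. The EPHA2 segment covers 24.0 to 27.7% in shPROX1 libraries and 18.7 to 21.3% in control libraries, and the EPHB3 segment 5.63 to 6.02% in shPROX1 libraries and 11.1 to 12.9% in control libraries.

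The sequence just upstream of the transcription start is given for EPHA2, EPHB2 and EPHB3, the Eph receptors whose levels differed most clearly between the groups. Each stretch covers 200 bases, from 250 to 51 bases before the RefSeq start (assembly GRCh38.p14), written 5′ to 3′ on the strand of the gene. The positions are chr1:16156120-16156319 on the minus strand for EPHA2, chr1:22710588-22710787 on the plus strand for EPHB2 and chr3:184561535-184561734 on the plus strand for EPHB3. Capitals mark matches on either strand to the E-box CANNTG, bound by myogenic bHLH factors, to the TEAD word CATTCC or to the AP-1 word TGANTCA.
EPHA2: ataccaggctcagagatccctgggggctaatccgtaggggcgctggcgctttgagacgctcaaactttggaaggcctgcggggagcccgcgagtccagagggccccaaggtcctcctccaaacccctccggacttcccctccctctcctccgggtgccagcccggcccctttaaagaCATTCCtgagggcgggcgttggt
EPHB2: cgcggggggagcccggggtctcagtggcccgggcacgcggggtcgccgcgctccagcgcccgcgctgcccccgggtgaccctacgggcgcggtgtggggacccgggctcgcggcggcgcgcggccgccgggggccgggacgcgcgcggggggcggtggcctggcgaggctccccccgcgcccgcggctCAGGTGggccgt
EPHB3: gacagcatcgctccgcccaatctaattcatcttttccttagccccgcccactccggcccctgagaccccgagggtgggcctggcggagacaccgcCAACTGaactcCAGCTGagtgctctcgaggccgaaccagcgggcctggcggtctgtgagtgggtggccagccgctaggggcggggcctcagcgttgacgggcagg
EPHA2 held 1 TEAD word and 0 E-boxes, EPHB2 held 1 E-box and EPHB3 held 2. No AP-1 word was found in these 3 windows. Windows of this kind were at hand for 31 of the 36 guidance genes, of which 16 held an E-box, 1 a TEAD word and 0 an AP-1 word. Over 27305 promoters of all genes the same windows held an E-box in 55.1%, a TEAD word in 9.79% and an AP-1 word in 5.33%. The EPHB2 window was the richest in G and C, at 86.5%, against 65% for EPHA2 and 67.5% for EPHB3. A match describes the letters only and says nothing of binding in these cells.

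Of the 8 ephrins, 4 were tested and 1, EFNA4, fell. EFNA4 (ENSG00000243364, chromosome 1, 155063731 to 155069553, plus strand) encodes a lipid-anchored ligand of class A receptors. It measured 3.78, 2.48, 3.49 and 3.78 CPM in shPROX1 libraries, against 5.20, 5.93, 6.27 and 5.28 CPM in control libraries. The groups did not overlap. The log2 change was -0.73 ± 0.22 (SE, edgeR adjusted p = 0.0137), from 55 summed counts in shPROX1 and 98 in control libraries. This call was lost under DESeq2 (adjusted p = 0.0689) and without shPROX1 replicate 2 (edgeR adjusted p = 0.0565). Of its exon bases, 15% also lie in the readthrough gene AL691442.1 on the same strand, to which 0 counts were assigned in all 8 libraries, so reads of that stretch are uncertain.

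EFNA5, a ligand of class A receptors that can also bind EPHB2, supplied most ephrin counts. It was read at 48.7, 41.0, 47.3 and 39.7 CPM in shPROX1 libraries and 43.7, 43.2, 44.8 and 47.7 CPM in control libraries. The control values lay inside the shPROX1 range. With a log2 change of -0.03 ± 0.08 (SE, adjusted p = 0.83), its 95% interval ran from -0.20 to 0.14. Its share of all ephrin counts was 69.6 ± 3.22% in shPROX1 cells and 62.5 ± 2.29% in control cells.

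Neither tested ephrin-B gene passed the threshold. EFNB1, the transmembrane ligand whose loss causes craniofrontonasal syndrome, had 8.75, 11.2, 12.6 and 9.92 CPM in shPROX1 libraries and 15.6, 14.6, 9.16 and 14.0 CPM in control libraries. Control replicate 3 lay among the shPROX1 values, apart from the other 3 control libraries. The log2 change was -0.34 ± 0.17 (SE, adjusted p = 0.128), and without control replicate 3 the adjusted p was 0.0255. Leaving out any 1 library gave EFNB1 edgeR adjusted p-values from 0.0255 to 0.314.

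EFNB3, a midline barrier to axons in mice, had 0.473, 1.99, 2.96 and 1.89 CPM in shPROX1 libraries and 3.78, 3.70, 5.06 and 1.62 CPM in control libraries. Control replicate 4 fell within the shPROX1 range, and the other 3 control libraries lay above it. Its log2 change of -0.94 ± 0.39 (SE) was larger than that of EPHB3 but less precise (adjusted p = 0.0628). Without shPROX1 replicate 3 or control replicate 4 the adjusted p was 0.0300 or 0.0128. Leaving out any 1 library gave EFNB3 edgeR adjusted p-values from 0.0128 to 0.225. Summed over all 8 ephrins, the level was 63.4 ± 4.93 CPM in shPROX1 cells and 71.7 ± 0.93 CPM in control cells (SD, n = 4 each).

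Of the Slit and Robo genes, SLIT2, ROBO1 and ROBO3 were tested and none passed the threshold in edgeR at unadjusted p-values of 0.0435, 0.242 and 0.373, of which the first is under 0.05. DESeq2 gave adjusted p-values of 0.198, 0.47 and 0.621. SLIT2, a secreted repellent cut into fragments outside the cell, had 17.3, 15.4, 24.7 and 20.3 CPM in shPROX1 libraries and 22.7, 21.2, 22.7 and 27.0 CPM in control libraries. The groups overlapped through shPROX1 replicate 3. The log2 change was -0.28 ± 0.13 (SE, adjusted p = 0.102), and without that library the adjusted p was 0.0193. Leaving out any 1 library gave SLIT2 edgeR adjusted p-values from 0.0193 to 0.317.

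ROBO1, the main Slit receptor in these cells, was read at 108, 111, 127 and 112 CPM in shPROX1 libraries and 97.6, 113, 115 and 109 CPM in control libraries. The groups overlapped, with a log2 change of 0.08 ± 0.06 (SE, adjusted p = 0.380). It took 94.8 ± 1.20% of Robo receptor counts in shPROX1 cells and 96.3 ± 1.45% in control cells. ROBO3, which lets commissural axons cross the midline, had 4.97, 5.46, 6.18 and 2.60 CPM in shPROX1 libraries and 4.73, 6.17, 3.62 and 1.42 CPM in control libraries. Replicate 4 was the lowest of each group, and the log2 change was 0.29 ± 0.32 (SE, adjusted p = 0.520). The spread of the control libraries, a coefficient of variation of 50.3%, exceeded the 24.4% that counting gives.

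ROBO4, a Robo receptor known from endothelial cells, did not pass the filter. It had 5, 0, 11 and 8 counts in shPROX1 libraries, against 0, 0, 0 and 4 counts in control libraries. The groups overlapped, since shPROX1 replicate 2 had 0 counts. The ratio of summed counts, scaled by library size, was 6.32 (95% interval 2.17 to 25, counting error only). In the alternative fit with no filter on low counts the log2 change was 2.55 ± 0.68 (SE, edgeR adjusted p = 0.0019). ROBO4 was singled out after its values were seen. Of its exon bases, 16.9% lie opposite the antisense genes AP003501.1 and AP003501.2, which had 0 counts in all 8 libraries. Of 7 endothelial markers, TEK and TIE1 were at 1 CPM or more and CDH5 had 0 counts in every library, and their summed level was 43.4 to 48.9 CPM in shPROX1 and 41.2 to 59.3 CPM in control libraries. Their part in the ROBO4 counts was not tested.

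Among netrins and their receptors, NTN1 fell and UNC5D rose. NTN1 (ENSG00000065320, chromosome 17, 9021542 to 9244000, plus strand) encodes netrin-1, the secreted cue for DCC, neogenin and UNC5 receptors. It measured 21.3, 27.1, 19.6 and 25 CPM in shPROX1 libraries, against 34.3, 28.6, 29.2 and 30.7 CPM in control libraries. All 4 shPROX1 libraries were below all 4 control libraries. The fold was 0.759 (95% interval 0.649 to 0.888, log2 change -0.40 ± 0.11 SE, edgeR adjusted p = 0.00657). NTN4, a basement membrane netrin, had 15 counts in shPROX1 and 9 in control libraries and was not tested.

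UNC5D (ENSG00000156687, chromosome 8, 35235457 to 35796550, plus strand) encodes a repulsive netrin receptor that also binds the adhesion protein FLRT2. Its levels were 22.2, 20.4, 23.4 and 19.1 CPM in shPROX1 libraries, against 11.1, 15.6, 17.1 and 19.7 CPM in control libraries. The groups overlapped, because control replicate 4 exceeded shPROX1 replicate 4, and control replicate 1, the library set apart by the second principal component, was the lowest. The log2 change was 0.41 ± 0.14 (SE, edgeR adjusted p = 0.0275). Without control replicate 1 it was 0.27 with an adjusted p of 0.101, and the call was also lost without control replicate 2 (0.0580) and without shPROX1 replicate 1 (0.0717) or 3 (0.0691).

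UNC5B, a repulsive netrin receptor of vessels, was the most abundant netrin receptor per length and did not pass the test. It was read at 31, 26.1, 33.1 and 32.8 CPM in shPROX1 libraries and 33.1, 28.9, 33.8 and 29.4 CPM in control libraries. The groups overlapped almost fully, with a log2 change of -0.02 ± 0.10 (SE, adjusted p = 0.874). NEO1, or neogenin, a receptor of netrins and of repulsive guidance molecules that promotes myoblast differentiation in mice, had 7.80, 7.20, 6.72 and 8.03 CPM in shPROX1 libraries and 7.56, 7.16, 14.0 and 10.4 CPM in control libraries. Control replicates 3 and 4 stood above the other 6 libraries, and the log2 change was -0.39 ± 0.20 (SE, adjusted p = 0.139). UNC5D made up 35.8 ± 2.76% of netrin receptor counts in shPROX1 cells and 27.7 ± 5.11% in control cells. DCC, the classical attractive netrin receptor, contributed none.

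Apart from ROBO4, NTN4, ROBO2 and DCC, 14 more guidance genes stayed under the filter. EFNB2, the arterial ephrin, had 25 counts in shPROX1 and 23 in control libraries, and 26.2% of its exon bases lie opposite AL138689.2. EFNA1, a main ligand of EPHA2, had 12 counts in shPROX1 and 26 in control libraries, a scaled ratio of 0.486 (95% interval 0.223 to 0.998, counting error only). With the spread between libraries, in the fit with no filter on low counts, its log2 change was -0.98 ± 0.52 (SE, edgeR adjusted p = 0.266). EFNA2 had 6 and EFNA3 had 12 counts in shPROX1 libraries, against 14 and 12 in control libraries, and 44.7% of the exon bases of EFNA3 are shared with AL691442.1. SLIT1 had 14 counts in shPROX1 and 19 in control libraries, and SLIT3 had 2 in shPROX1 and 4 in control libraries. EPHA1 had 8 counts in shPROX1 and 16 in control libraries. EPHA5, EPHA8 and EPHA10, 3 receptors known mostly from nervous tissue, had 3, 0 and 2 counts in shPROX1 and 3, 1 and 5 in control libraries. EPHB1 and EPHB6, of which EPHB6 lacks kinase activity, had 2 and 1 counts in shPROX1 and 5 and 1 in control libraries. UNC5A and UNC5C had 1 and 0 counts in shPROX1 and 3 and 1 in control libraries. None of these 14 genes passed the threshold in that edgeR fit, and 0 had an unadjusted p under 0.05 (the lowest was 0.0603, for EFNA1). NTN4 also missed the threshold in that fit (edgeR adjusted p = 0.527). With counts this low, a missed threshold does not show that a gene was unchanged.

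Some guidance genes are neighbours in the genome. EFNA4 and EFNA3 lie 9.32 kb apart and EFNA3 and EFNA1 39.9 kb apart on chromosome 1, and of these 3 only EFNA4 had enough counts for a test. EPHB2 lies 107 kb from EPHA8, which had 0 counts in shPROX1 and 1 in control libraries. ROBO3 and ROBO4 lie 2.22 kb apart on opposite strands of chromosome 11. Outside EFNA3 and EFNA4, at most 2.18% of the 31-base words of any guidance gene's transcripts were found in another gene, so few reads could be split between copies.

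Genes that carry Eph and ephrin signals inside the cell were counted in the same fit. Of 35 such genes 28 were tested, of which 5 rose and 5 fell, 35.7% in all against the background of 35.2%. RGS3, whose PDZ form binds ephrin-B tails, had 54.1, 48.7, 40.3 and 50.8 CPM in shPROX1 libraries and 24.6, 27.9, 24.4 and 32.3 CPM in control libraries. Its groups were apart, with a log2 change of 0.83 ± 0.10 (SE, edgeR adjusted p = 1.19e-06). ABL2, a kinase that binds Eph receptors, rose by 0.50 on the log2 scale, at 264 to 295 CPM in shPROX1 and 172 to 214 CPM in control libraries (adjusted p = 7.82e-07). SDCBP, or syntenin, a PDZ protein that binds ephrin-B tails, rose by 0.45, at 108 to 113 CPM in shPROX1 and 69.5 to 89.4 CPM in control libraries (adjusted p = 1.27e-05). EFS, a docking protein of the CAS family, fell by 0.44 on the log2 scale, at 14.7 to 18.5 CPM in shPROX1 and 21 to 24.6 CPM in control libraries (adjusted p = 0.00538), and 8.8% of its exon bases lie opposite another gene. PTPN11, the phosphatase SHP2, was the most abundant of those that did not pass, at 447 to 473 CPM in shPROX1 and 413 to 460 CPM in control libraries (log2 change 0.08, adjusted p = 0.162).

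Of 23 Slit and Robo partner genes 21 were tested, of which 7 rose and 4 fell, or 52.4% in all against the background of 35.2%. The median size of the change over these 21 genes was 0.16 on the log2 scale, against 0.184 over all tested genes. GPC1, glypican-1, a heparan sulphate proteoglycan that binds Slits, had 108, 110, 134 and 121 CPM in shPROX1 libraries and 206, 215, 196 and 209 CPM in control libraries. The groups were apart by more than the spread of either, and the log2 change was -0.80 ± 0.06 (SE, edgeR adjusted p = 5.11e-10). DAG1, dystroglycan, a matrix receptor of muscle that also binds Slits, fell by 0.47 on the log2 scale, at 69.5 to 99.2 CPM in shPROX1 and 105 to 123 CPM in control libraries (adjusted p = 7.54e-05). SRGAP1, a GTPase-activating protein that binds Robo tails, rose by 0.68, at 7.95 to 13.7 CPM in shPROX1 and 5.43 to 8.20 CPM in control libraries, with overlap (adjusted p = 0.00675). PAK1, a kinase downstream of Rac, rose by 0.36, at 26.9 to 37.3 CPM in shPROX1 and 23.5 to 27.2 CPM in control libraries, also with overlap (adjusted p = 0.0132), and 14.8% of its exon bases lie opposite another gene. USP33, a deubiquitinase of ROBO1, did not pass, at 189 to 206 CPM in shPROX1 and 194 to 216 CPM in control libraries (log2 change -0.06, adjusted p = 0.444).

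Of 24 netrin partner genes 15 were tested, of which 3 rose and 5 fell, or 53.3% in all against the background of 35.2%. The median size of the change over these 15 genes was 0.302 on the log2 scale. The partner lists were chosen with earlier results of these data known and were not tested for a difference from the background. RGMA, a repulsive guidance molecule that binds neogenin, had 8.51, 6.96, 6.18 and 5.19 CPM in shPROX1 libraries and 10.2, 11.9, 15.9 and 13.2 CPM in control libraries. The groups did not overlap, and the log2 change was -0.92 ± 0.18 (SE, edgeR adjusted p = 0.000384). FLRT2, an adhesion protein that binds UNC5 receptors, had 45.2, 49.9, 50.2 and 51.2 CPM in shPROX1 libraries and 70.2, 83.7, 79.1 and 83.8 CPM in control libraries. It fell by 0.69 on the log2 scale (SE 0.07, adjusted p = 9.57e-08), with groups well apart. DAPK1, a death-associated kinase downstream of UNC5B, fell by 0.41 on the log2 scale, at 63.4 to 77.9 CPM in shPROX1 and 93.1 to 97.0 CPM in control libraries (adjusted p = 2.58e-05). ADORA2B, an adenosine receptor reported to bind netrin-1, rose by 0.68, at 25.3 to 31.9 CPM in shPROX1 and 16.8 to 20.1 CPM in control libraries (adjusted p = 3.67e-05). RGMB did not pass, at 222 to 243 CPM in shPROX1 and 205 to 241 CPM in control libraries (log2 change 0.07, adjusted p = 0.350), and 45.6% of its exon bases lie opposite other genes. Over the 82 partner genes, 64 were tested and the median log2 change was 0.00084.

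Markers of other cell types were looked at because Eph, Robo and netrin receptors are also neural, vascular and epithelial genes. Of 6 neuron markers, SNAP25 and NEFL were at 1 CPM or more and STMN2 had 0 counts in every library, and the list summed to 63.1 to 71.8 CPM in shPROX1 and 85.3 to 98.6 CPM in control libraries. NEFL, a neurofilament gene, was the 1 of them past the threshold, and it was lower in shPROX1 cells (log2 change -0.41, edgeR adjusted p = 4.32e-05). Of 5 epithelial markers only KRT8 reached 1 CPM, KRT5 had 0 counts, and the list summed to 10.7 to 16.6 CPM in shPROX1 and 9.45 to 14.6 CPM in control libraries. None of 5 leukocyte markers reached 1 CPM, CD3E had 0 counts in every library, and the list summed to 0.248 to 0.708 CPM in shPROX1 and 0.241 to 1.01 CPM in control libraries. The part of these genes in the guidance results was not tested. In bulk RNA, fewer cells that express a gene and less RNA per cell cannot be told apart.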

How the data were processed

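The deposited tables, 1 for each library, give unnormalized read counts for 58302 genes and have 0 rows that name no gene. Per the submitters' processing notes, FastQC, HISAT2, HTSeq and DESeq2 were used with the build GRCh38 (hg38); versions, annotation and strand setting are not given in the sources used here. Because the strand setting is not known, genes overlapping on opposite strands may share reads. Symbols, exons and coordinates came from GENCODE 29, which matched 58039 of the gene identifiers (56647 with the same coordinates), and promoter windows from RefSeq tables.

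The quasi-likelihood test of edgeR (version 4.0.16, R 4.3.3) was fitted to all 8 libraries with a single term for the group, after TMM scaling and the filterByExpr filter, which left 12392 genes. P-values were adjusted over these by Benjamini-Hochberg, with a threshold of 0.05. SE is the size of the log2 change over the square root of F. CPM uses TMM-scaled library sizes, summed over the tested genes. The alternatives comprised scaling by RLE or by upper quartiles, leaving low counts unfiltered, a 1 CPM filter, DESeq2 1.42.0, limma 3.58.1 voom, a replicate block, leaving out each library, a threshold of 0.01 and glmTreat against 1.5-fold.

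The 36 members, the partner and marker lists and the rules were chosen with earlier results of these data known. Members past the threshold at a mean of at least 1 CPM were described in full, with the most abundant member of each family that did not pass and, in addition, the other tested members. Of each partner list, up to 4 genes past the threshold with the largest change at a mean of at least 5 CPM were named, and the most abundant that did not pass.

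Depth was 3747090 to 4865161 counts per library, where 3 counts, the limit that a count of 0 allows, are 0.609 to 0.806 CPM. Intervals and limits on counts cover counting error only. Over 12 pairs within groups, chi-square over its degrees of freedom was 1.19 to 2.16 in shPROX1 and 2.39 to 6.34 in control libraries. Counting error alone gives about 1, so no library was counted as a copy. The shPROX1 libraries thus differed less from each other than the control libraries did, and the closest shPROX1 pair by little more than counting error. Labels do not say how the replicates were grown, so p-values measure the spread between these libraries. Other scalings moved the median of all genes by at most 0.01 on the log2 scale. On simulated counts with known changes (12278 genes, shPROX1 against control), 66.2% of 80 genes changed by 0.5 on the log2 scale were called. So were 95% of 80 changed by 1 and 100% of 39 changed by 2, with 8 of 12079 unchanged genes called. The simulation gave every gene in both groups the same dispersion and left most genes unchanged. In the data 35.2% of genes were called and the groups differed in spread, so these rates need not hold for them.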

Additional observations from a re-analysis of the deposited data

Results flagged for a closer look

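EPHB3 in control cells was the 1 case, among 68 groups of 4 libraries tried, in which a library stood apart from its group. Chance gives about 1 such case in 20 groups. Control replicate 3 had 58.8 CPM and stood apart from the other 3 control libraries, at 52.5 to 52.8 CPM. Its gap to the nearest of them was 0.943 of the range of the group, above Dixon's critical value for 4 samples. The library lay farther from the shPROX1 values of 28.2 to 30.3 CPM than the others did. Without it the log2 change of EPHB3 was -0.86.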

How the results depend on the processing

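EPHB2 and EPHB3 passed the threshold in all 17 alternatives, and EPHA2, EPHA7 and NTN1 in 16, each failing against a 1.5-fold change. EPHB2 entered the filtered fits only through the shPROX1 libraries, where it was high. Its passing in those fits is therefore no separate support for a difference. EFNA4 passed in 13 and UNC5D in 11. Against a 1.5-fold change, 369 genes were called, with 1 guidance gene higher (EPHB2), 1 lower (EPHB3), and 0, 1 and 0 Eph, Slit and netrin partners. At 0.01 the Slit and Robo partners called numbered 6, against 11 at 0.05. The share of all genes called at 0.01 is not given here, so this count is no result about the partners. Leaving out 1 library gave 3788 to 4292 genes, 3 to 5 guidance genes higher, 2 to 5 lower (5 without shPROX1 replicate 3, where EFNB3 and SLIT2 were gained), 8 to 10 Eph, 8 to 11 Slit and 7 to 9 netrin partners, and a PROX1 log2 change of -1.15 to -0.99. The direction of uncalled genes near 0 turned in such fits, with ranges of -0.079 to 0.024 for EFNA5, -0.058 to 0.047 for UNC5B and -0.019 to 0.58 for ROBO3. The causes were not tested.

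Same-numbered libraries of the 2 groups did not deviate together (r = -0.03, -0.05, 0.05 and -0.03), so no pairing by number was seen. The deviations, taken from means of 4 libraries, also hold counting error, so r near 0 cannot exclude a pairing. With the number as a replicate block, 4 guidance genes were higher and 4 lower, EFNB3 being gained (edgeR adjusted p = 0.0471). In that fit 2075 of all 12392 tested genes were higher and 2112 lower. Of the 16 guidance genes under the filter that had counts, ROBO4 alone passed in the fit without a filter.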
